A study of Mus musculus with 4 samples.

Results

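Pgr encodes the progesterone receptor, and its locus was described here as every called interval that overlapped chromosome 9, 8880000 to 9000000, a window of 120 kb set for the gene on the mm9 build. It held 5 of the 35977 intervals in the 4 deposited lists. They were 1 of 10373 adult FOXA2 intervals, 0 of 814 FOXA2 intervals from postnatal day 12 (PD12), 1 of 14818 adult POL2 intervals and 3 of 9972 PD12 POL2 intervals. The lists come from chromatin immunoprecipitation and sequencing of whole mouse uterus, with an antibody to the transcription factor FOXA2 or to RNA polymerase II carrying phosphate on serine 2 of the repeats in its tail (POL2). The adult groups were from pseudopregnancy, the hormonal state after a sterile mating, with days 2.5 and 3.5 in a single library, and the PD12 groups were from immature females. Genotype and strain were not given in the sources used here. The study's question was which sites FOXA2 occupies while uterine glands form and in the mature organ.

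With 1 library in each group, stages could not be compared by any test, no error can be given for any length, and no p-value is printed. The lists hold positions and no heights or read counts, and the depth of every library is unknown. A missing interval therefore says that none was listed, and not that the protein was absent. Because the tissue was whole uterus, more cells with POL2 on the gene and more POL2 per cell cannot be told apart, and a FOXA2 and a POL2 interval at the same place need not come from the same cells. The window was chosen from these same intervals, so its lengths are a description. The identity of the locus rests on the mm9 window, since the lists name no build.

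The progesterone receptor is a ligand-activated transcription factor of the nuclear receptor family. Transcription of the gene from alternative starts yields a long and a short form of the protein. In the uterus the receptor is found in epithelium, stroma and smooth muscle, oestrogen is known to induce the gene in several of these cells, and progesterone signalling through it prepares the uterus for implantation. FOXA2, a forkhead factor, is made in the glandular epithelium. POL2 phosphorylated on serine 2 is the form that travels through gene bodies during elongation. Its intervals are called domains here, with a median width of 4.8 kb in the adult list and 5.4 kb in the PD12 list. How far their length depends on the way they were called was not tested. In the GRCm38 annotation Pgr lies between the long non-coding gene Gm32014 and the coding gene Arhgap42, and the next coding gene on the Gm32014 side is Trpc6, which encodes a cation channel.

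The bases just before the start of Pgr are shown as the place where transcription of the gene begins and where letters bound by forkhead factors could be looked for without the lists' build. The sequence is the RefSeq plus strand on GRCm38.p6, chr9:8899583-8899832. It is not on the build of the lists, and its position was not compared with theirs. Capitals mark a match to a searched motif, and the first line has none.
Pgr, 250 bases before the start: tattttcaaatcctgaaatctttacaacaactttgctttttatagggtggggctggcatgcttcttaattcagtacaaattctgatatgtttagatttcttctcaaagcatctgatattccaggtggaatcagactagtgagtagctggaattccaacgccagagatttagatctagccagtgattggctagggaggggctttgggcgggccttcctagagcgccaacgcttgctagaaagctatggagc
Pgr, 23 bases around the match downstream of the start, chr9:8899856-8899878: ctttgtagTATTTACgggtgcga

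Several sets of letters were searched on both strands of the 250 bases before and 50 after the start, and they were chosen with this sequence in view. The forkhead core TGTTTAC had no match at Pgr and was found in 3.65% of 32851 promoters of the same length. The forkhead variant TATTTAC had 1 match, on the plus strand, beginning at base 32 of the transcribed part, counted from 1 at the start, and was found in 3.04% of promoters. TGTTCT, the half-site shared by the progesterone and other steroid receptors (19% of promoters), and TGACC, the half-site of the oestrogen receptor (40.5%), had no match. These are matches of letters within a short window and do not show binding or its absence. The bases under the FOXA2 interval described next are not printed, because no genome of the lists' build was used here.

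POL2 covered nearly the same stretch of the locus at both stages. The adult list had a single domain, from 8897800 to 8990399 (92.6 kb). The PD12 list had 3 domains, from 8897800 to 8960599 (62.8 kb), from 8961400 to 8982599 (21.2 kb) and from 8983800 to 8988199 (4.4 kb), 88.4 kb in all. POL2 thus covered 77.2% of the window in the adult and 73.7% at PD12.

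All 3 PD12 domains lay inside the adult domain, so the stages shared 88.4 kb, which was 95.5% of the adult bases and 100% of the PD12 bases. The 4.2 kb listed in the adult alone fell in 3 places. Of these, 800 bp was the first break in PD12 cover (8960600 to 8961399), 1200 bp the second (8982600 to 8983799), and 2200 bp lay beyond the last PD12 domain. Both breaks were in the part of the domain with larger positions, 62.8 and 84.8 kb from its first base. If the lists' build keeps the plus-strand orientation of GRCm38, that is the side towards the 3′ end of Pgr.

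An 800 bp break is the shortest either POL2 list contains. In the PD12 list 729 of 9952 gaps between neighbouring domains on a chromosome had that length, and 12.6% were 1200 bp or shorter. All POL2 starts in both lists fell on a grid of 200 bp, which sets the finest difference in start position that can be read. Breaks shorter than 800 bp are in neither list, so the single adult domain need not be continuous below that length.

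The first base of POL2 cover at Pgr was the same in both lists. Of the 8060 adult domains that overlapped a PD12 domain, 592 (7.34%) began at the same position as one, and 644 (7.99%) ended at the same position as one. Among the 30 adult domains of at least 50 kb, 27 overlapped a PD12 domain and 3 of these, Pgr included, had the same first base at both stages. At the other end the adult domain of Pgr ran 2200 bp further than PD12 cover did.

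**Figure D1:**
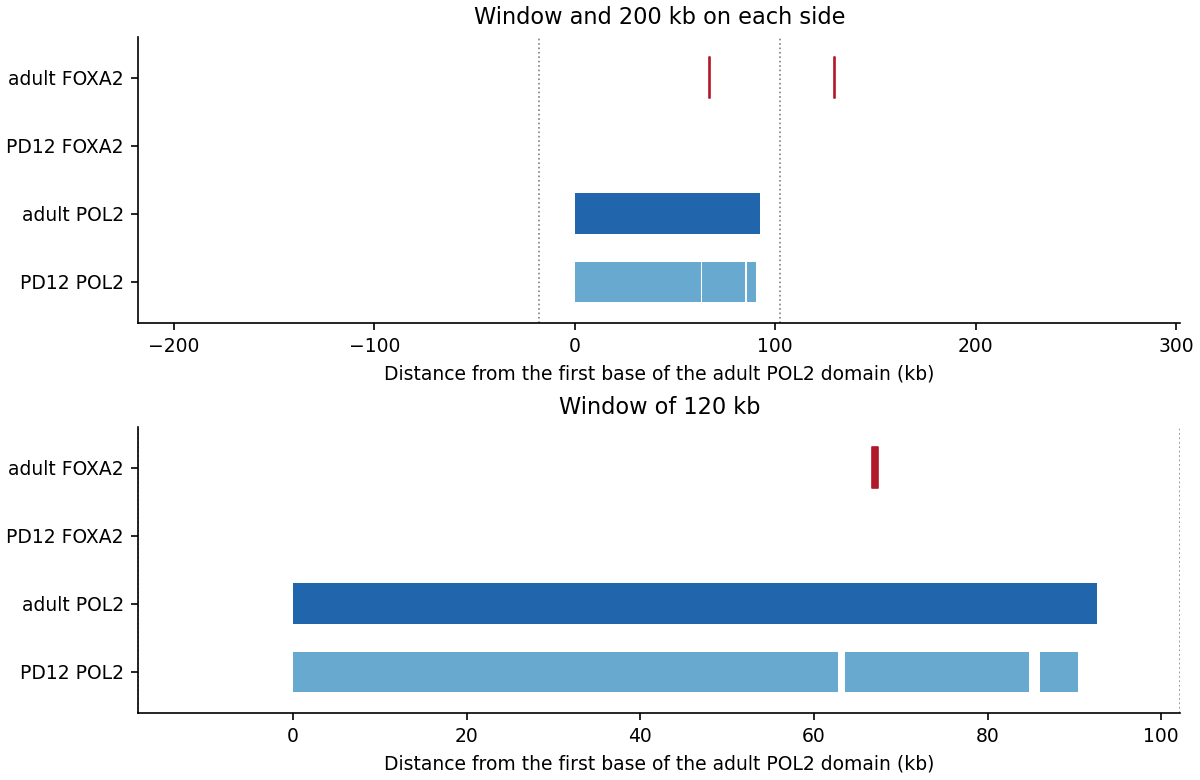
Intervals of the 4 lists at Pgr, as bars along the distance in kb from the first base of the adult POL2 domain, for the window with 200 kb on each side (top) and the 120 kb window alone (bottom), with the window's edges as dotted lines. FOXA2 bars have a thin outline so that they can be seen. Adult POL2 is 1 domain of 92.6 kb and PD12 POL2 is 3 domains with the same first base, and the only FOXA2 intervals are 2 adult ones, 1 inside the POL2 domain and 1 beyond it.

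The domain at Pgr was among the widest of both lists. In the adult it ranked 3 of 14818 by width and 1 of 810 on chromosome 9, where the median of the whole list was 4.8 kb (4800 bp). Its neighbours in the order were 98.2 kb on chromosome 16 and 92.4 kb elsewhere on chromosome 9, so the difference from the next narrower domain was a single step of the 200 bp grid. The widest PD12 piece, 62.8 kb, ranked 12 of 9972 and 1 of 536 on chromosome 9, against a list median of 5.4 kb (5400 bp). The other pieces ranked 304 and 5997. The Pgr window held 0.0972% of all bases covered by adult POL2 and 0.126% of those covered by PD12 POL2.

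To set lengths side by side without the effect of short breaks, the POL2 domains listed at either stage were merged wherever 5 kb or less separated them, which gave 11353 stretches. The stretch at Pgr kept the limits of the adult domain. It ranked 50 by length, 33 by bases covered in the adult and 24 by bases covered at PD12. The ratio of adult to PD12 bases was 1.05. Of the 11353 stretches, 5804 had cover at both stages, and their median ratio was 1.11. In the shares that follow, a stretch covered at 1 stage alone counts as past 1.5 times whatever its length. Among all stretches 52.4% had adult cover at least 1.5 times PD12 cover, and 18.4% had PD12 cover at least 1.5 times adult cover. Among stretches of at least 20 kb these shares were 34.6% and 8.11%, and among the 262 of at least 50 kb they were 32.4% and 5.73%. For the 253 of those with cover at both stages the median ratio was 1.15 (interquartile range 0.963 to 1.73). Pgr lay within that range, and its near-equal cover at the 2 stages did not set it apart from other long stretches.

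**Figure D2:**
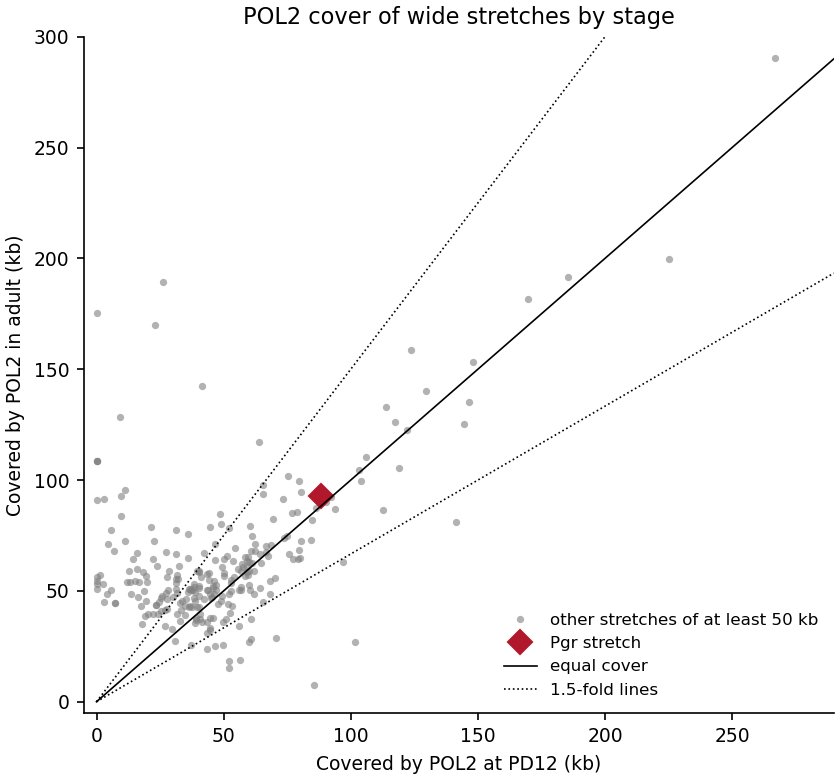
POL2 cover in kb in the adult (vertical) against PD12 (horizontal) for the 262 stretches of at least 50 kb, with Pgr as a diamond, the line of equal cover and dotted lines at ratios of 1.5. Pgr sits at 92.6 kb in the adult and 88.4 kb at PD12, close to the line of equal cover.

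The 5 stretches most like Pgr, by the distance between log2 bases covered in the adult and at PD12, were on chromosomes 16, 13, 9, 15 and 10. The closest, chromosome 16, 77591600 to 77705799, carried 92.0 kb of adult POL2 and 88.0 kb of PD12 POL2, yet in 10 adult and 8 PD12 domains. Chromosome 13, 102447400 to 102539199, had nearly equal cover, the ratio of adult to PD12 bases being 0.998, and chromosome 9, 72509200 to 72602999, had 92.4 kb in the adult and 92.2 kb at PD12. Chromosome 15, 77586600 to 77674199, had 87.4 kb in the adult and 86.4 kb at PD12, and chromosome 10, 5326800 to 5427999, had 87.0 kb in the adult and 94.0 kb at PD12. Like Pgr, the stretches on chromosomes 9 and 15 were 1 domain in the adult and more than 1 at PD12. Those on chromosomes 16 and 13 held 1 adult FOXA2 interval and no PD12 one, as Pgr did. The stretch on chromosome 15 held 1 of each, that on chromosome 9 held 1 PD12 interval alone, and that on chromosome 10 held neither. The genes there are not named, because no annotation of the lists' build was used here. The likeness rests on 2 values from 1 library each.

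PD12 cover varied widely among adult domains of at least 50 kb. PD12 POL2 covered 95.5% of the Pgr domain, rank 12 among the 30 adult domains of at least 50 kb, whose median was 92.2% and whose range was 0 to 100%. The 2 adult domains wider than that of Pgr were covered to 91.8% (290.6 kb) and 94.3% (98.2 kb). Of the 30, 20 were covered to at least 80% and 8 to less than 50%. Chromosome 9 held 4 of them. Besides Pgr, PD12 cover was 98.3% at 72509400 to 72601799 (92.4 kb), 0% at 48523800 to 48597799 (74.0 kb) and 16.7% at 115992400 to 116050999 (58.6 kb). At PD12 the Pgr domain was in 3 pieces, against a median of 2 for the 30 and a highest count of 13.

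**Figure D3:**
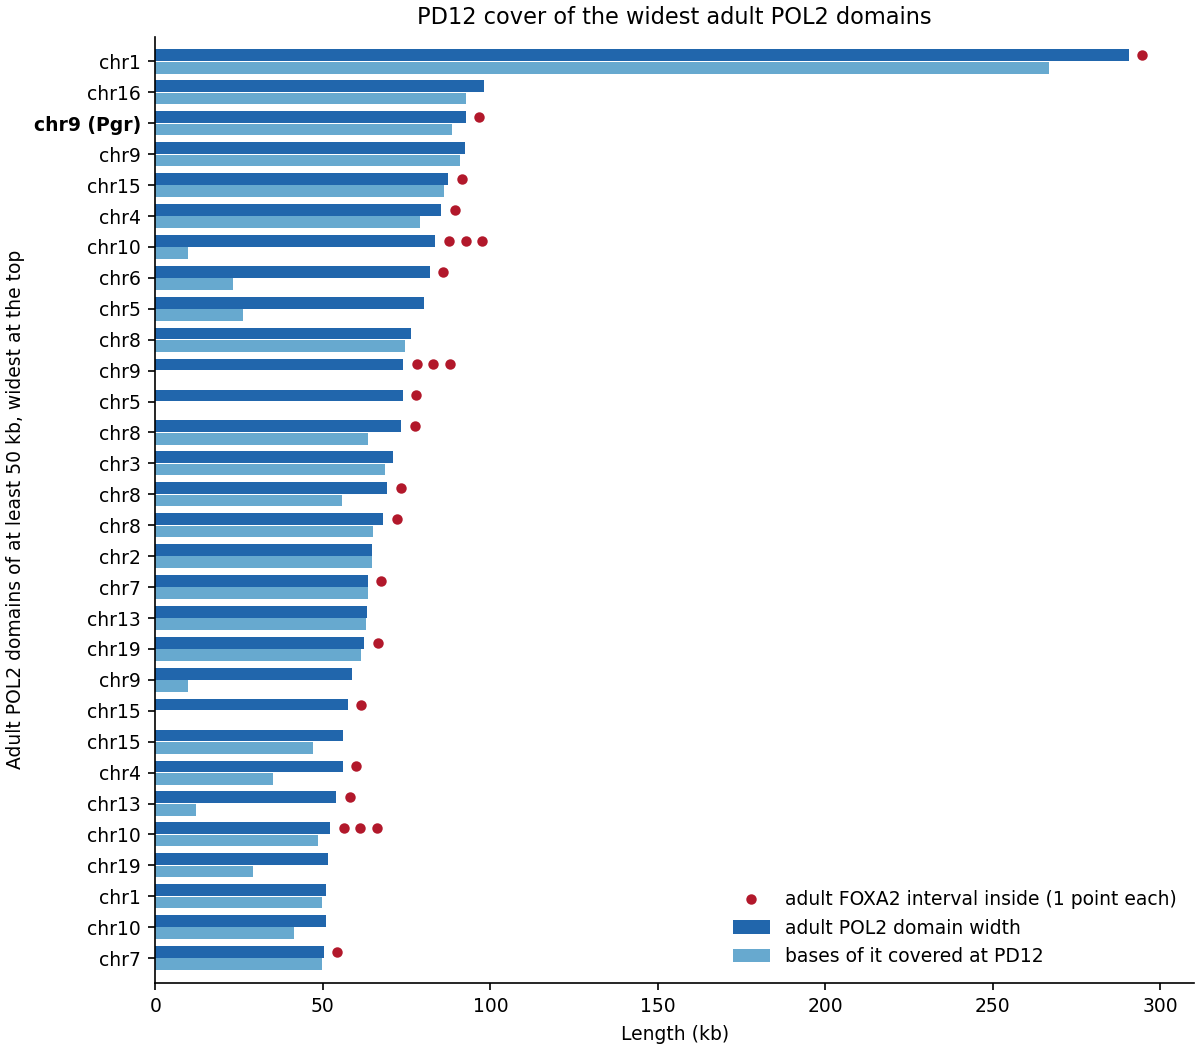
The 30 adult POL2 domains of at least 50 kb, with their width in kb (dark bars) above the bases of each covered by POL2 at PD12 (light bars), and 1 point for each adult FOXA2 interval inside. The Pgr domain is the third from the top, with 88.4 of its 92.6 kb covered at PD12 and 1 adult FOXA2 interval.

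FOXA2 was listed at the locus in the adult alone. The adult interval ran from 8964535 to 8965167 (633 bp), and the PD12 list had none. The adult interval was narrower than the median of its list (685 bp), and 39.3% of adult FOXA2 intervals were narrower still. It lay inside the adult POL2 domain, 66.7 kb from its first base and 25.2 kb from its last, with its centre 72.4% of the way along. It also lay inside the PD12 domain of 21.2 kb, 3.13 kb beyond the first break in PD12 cover.

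An adult FOXA2 interval with no PD12 counterpart is the usual case in these lists. Of all adult FOXA2 intervals 94.4% overlapped no PD12 interval, and of the 1050 that lay in POL2 domains of both stages, as the one at Pgr did, 90.8% overlapped none. Chromosome 9 had 569 adult and 57 PD12 FOXA2 intervals. The first of the PD12 ones was at 20189465 to 20189958, 11.2 Mb beyond the interval at Pgr. The 1050 had a median width of 911 bp, and 14.6% of them were narrower than the interval at Pgr. When the adult FOXA2 list was cut to the length of the PD12 list by keeping its 814 widest intervals, the narrowest left was 1130 bp. The interval at Pgr dropped out, which its width alone fixed, since it ranked 6280 of 10373. Width is not a height or a read count, so the cut cannot tell how strongly the site was bound.

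A FOXA2 interval within a very wide POL2 domain was not rare. Of the 30 adult domains of at least 50 kb, 60% held an adult FOXA2 interval, against 12.5% of all adult domains, which are mostly far shorter. Of the 30, 15 held 1 as Pgr did, 3 held 3, and 12 held none. With 1 interval in 92.6 kb, the Pgr domain had 1.08 adult FOXA2 intervals per 100 kb, and the 30 domains together had 1.05 per 100 kb. Their 24 FOXA2 centres lay between 10.9% and 93.2% of the way along the domains, with a median of 50.9%. The wide domain at 48523800 on the same chromosome, with no PD12 cover, held 3.

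The surroundings of the locus were empty of POL2 in both lists. Neither the 200 kb before nor the 200 kb after the window had a POL2 domain at either stage, so POL2 covered 0% of these 400 kb, beside 77.2% of the window in the adult and 73.7% at PD12. FOXA2 had 1 adult interval there, from 9027336 to 9027891 (556 bp), and none at PD12. That interval was just outside the window, by 27.3 kb, and 36.9 kb beyond the end of the adult POL2 domain. It was outside every POL2 domain of both lists. On the other side the nearest adult FOXA2 interval was 984 kb from the one at Pgr.

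The next POL2 domains were far away on both sides. On the side of smaller positions the nearest ended at 8005799 in the adult, 892 kb from Pgr, and at 7993599 at PD12, 904 kb away. On the side of larger positions the nearest began at 13515800 in the adult, 4.53 Mb away, and at 13291200 at PD12, 4.30 Mb away. In the lists of both stages combined, 5.19 Mb without a POL2 domain flanked the stretch, against a median of 149 kb for the 261 stretches of at least 50 kb that had neighbours on both sides. Pgr ranked 3 of these 261, the highest value being 7.88 Mb, and 87 among 11313 stretches of any length. Its nearer neighbour, at 892 kb, was the 4th most distant of the 261, where the median was 18.2 kb.

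**Figure D4:**
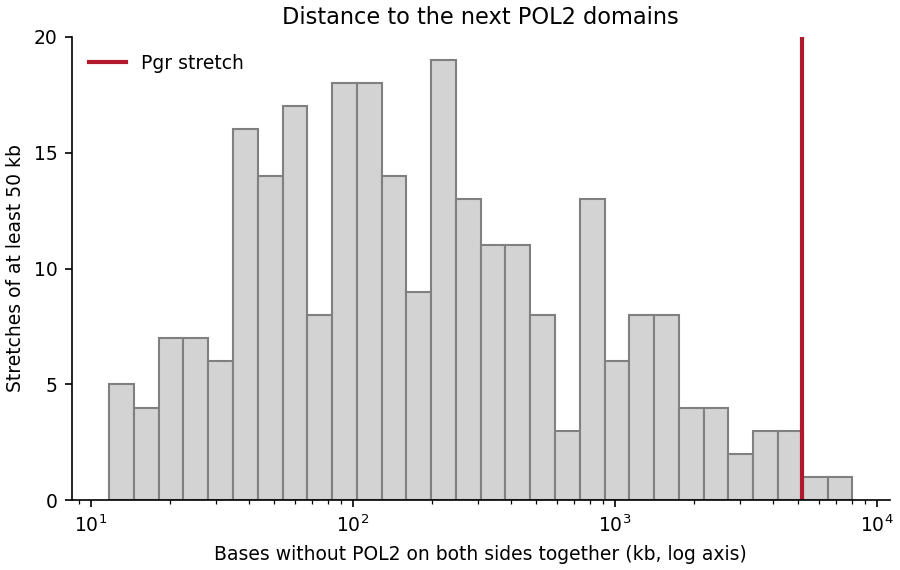
Number of POL2 stretches of at least 50 kb by the bases without POL2 on both sides together, in kb on a log axis, with the Pgr stretch as a vertical line. Pgr lies at 5.19 Mb, near the right edge, where the median is 149 kb.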

How the data were processed

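Fixed and sonicated chromatin of whole uterus was precipitated with a goat (FOXA2) or rabbit (POL2) polyclonal antibody, per the labels' protocols. BWA is named, without a version, per the submitters' processing notes. For calling of peaks, the program, threshold and role of input DNA, like the build, were not given in the sources used here. The deposited lists hold each interval's chromosome, start and end, per the file headers. They hold no score, and depth is unknown. In these lists 260 intervals on 9 chromosomes, 177 of them on chromosome 7, lay beyond the last gene of GRCm38. That build was therefore used for names, strand, neighbours and promoter sequences, and not to place any interval.

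Width was end minus start plus 1, and intervals were shared when they overlapped by 1 bp. Cover was clipped to the window. Calculations used Python 3.11.15, numpy 2.4.6, pandas 2.3.3 and matplotlib 3.10.9, and were tested on simulated intervals. Named regions were Pgr, its surroundings and neighbours and the 5 most similar POL2 stretches, and the widest domains were added after their values were seen. Members, lists and comparisons were chosen with earlier results of these data known. A list of 35 genes of progesterone signalling was not used, since its genes could not be placed on the lists' build.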

Additional observations from a re-analysis of the deposited data

How the results depend on the processing

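All 5 intervals lay wholly inside the window. Counting only intervals wholly inside it, by centre or unclipped could therefore not change the cover, and these settings test nothing. With the adult lists reduced to as many intervals as at PD12 by width, adult FOXA2 cover was 0 bp in place of 633 bp and adult POL2 cover was unchanged. Both outcomes were fixed by the ranks in width, 6280 of 10373 for FOXA2 and 3 of 14818 for POL2, so they test neither result. Adult FOXA2 cover of the surroundings was 0.139%, 0.278% with 100 kb on each side and 0.0556% with 500 kb. With 50% of both intervals covered, 1 of the 3 PD12 POL2 domains was shared, and with centres within 500 bp 0 were, and 0 adult ones. Ranks by length moved with the joining gap. For both stages together the rank was 50, and 13, 25, 28 and 88 with gaps of 0, 1, 2 and 10 kb. For adult POL2 it was 35, and 3, 14, 18 and 66. For PD12 POL2 it was 22, and 12, 15, 15 and 34, with a width of 90400 bp that was 62800 bp unjoined and 84800 bp with 1 kb. The share of stretches past 1.5-fold, those covered at 1 stage alone included, was 52.4% (adult higher) and 18.4% (PD12 higher). It was 34.6% and 8.11% at 20 kb or more, and 32.4% and 5.73% at 50 kb or more. From the adult FOXA2 interval to the nearest POL2 domain end, the distance by centre was 25.5 kb for adult POL2 and 3.45 kb for PD12 POL2. By nearest ends it was 25.2 and 3.13 kb. The PD12 end is the edge of the 800 bp break, so the shorter distance comes from that break. Alternatives added after the data were seen gave, for POL2-free bases around Pgr, ranks of 84 unjoined and 88 with 10 kb in place of 87, and of 1 and 5 in place of 3 among stretches of at least 50 kb. The share of adult domains with an adult FOXA2 interval was 60% at 50 kb or more, 33.4% at 20 kb or more and 12.5% over all. No paired analysis was possible because there was 1 library of each kind. Unknown depth limits every comparison of the lists.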
